A study of Mus musculus with 8 samples.

Results

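Interleukin 2 (IL-2) was blocked with an antibody in wild-type mouse CD8+ T cells, and the polyA RNA of the blocked cells was compared with that of untreated cells. The cells came from spleens and lymph nodes, and both groups were stimulated in culture for 3 days with antibodies to CD3 and CD28, which replace antigen and co-stimulation. All 4 libraries of this experiment were used, 2 untreated and 2 with the antibody, out of 8 in the study. The members are all 55291 gene names listed in the table of this experiment, of which 13978 reached a normalised read count of at least 10 in at least 2 libraries and were tested. The other experiment of the study removed Trim28, and its 4 libraries are not described here. The comparison asks how gene expression in activated CD8+ T cells changes when IL-2 is blocked.

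The control cells received no antibody against IL-2, and a group with an irrelevant antibody was not analysed here. The dose of the antibody, the number of mice and the measured loss of IL-2 activity are not given in the sources used here. Nothing in the labels says whether the 2 libraries of a group came from different animals or cultures, so p-values describe the spread between libraries, which can be technical. In bulk RNA, fewer cells of a kind and less RNA in each cell cannot be told apart.

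IL-2 is a growth factor that activated T cells make and take up themselves. It binds a receptor of an alpha chain (CD25), a beta chain (CD122) and the common gamma chain, and the kinases JAK1 and JAK3 then switch on the transcription factor STAT5. In CD8+ T cells STAT5 is known to induce its own feedback inhibitors, the high-affinity receptor chain, and the genes of cytotoxic effector cells.

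Each group has 2 libraries, and SE is the standard error of the log2 fold change. Recovered reads per library were 16653962 and 16618750 in untreated cells and 17042931 and 17069569 with the antibody. The T cell identity genes Cd8a, Cd8b1, Cd3e and Trac were abundant in every library, while Cd4 lay between 1.03 and 9.55. The other CD4 T cell markers are given below. The antibody libraries differed more from each other than the untreated ones did, with a chi-square per gene of 4.615 against 1.383 (sampling noise alone gives about 1). Both pairs therefore differed by more than sampling noise, and each library was counted as 1 replicate.

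With anti-IL-2, 4391 of 13978 tested genes were higher (31.4%) and 4033 were lower (28.9%), by limma at a Benjamini-Hochberg adjusted p under 0.05. Together 60.3% of tested genes were called, so a call alone says little, and the size of a change says more. The counts given for gene lists below are to be read beside these shares, 31.4% higher and 28.9% lower. Called and at least 2-fold higher were 679 genes (4.86%), against 1402 lower (10%). At 4-fold and more, 103 genes were higher (0.737%) and 463 were lower (3.31%), and at 16-fold and more the numbers were 10 and 45. The 4-fold counts were 63 and 294 with a pseudocount of 5 and 60 and 251 with a filter at 50, which also lowered the 2-fold lower count to 825. The median log2 fold change of all tested genes was 0.018. Of 194 genes with a mean normalised read count of 10000 or more, 46 were higher and 107 were lower, 1 and 22 of them by at least 2-fold. Among 11324 protein-coding genes 4051 rose and 3413 fell, whereas 238 lincRNA genes had 31 higher and 102 lower.

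**Figure D1:**
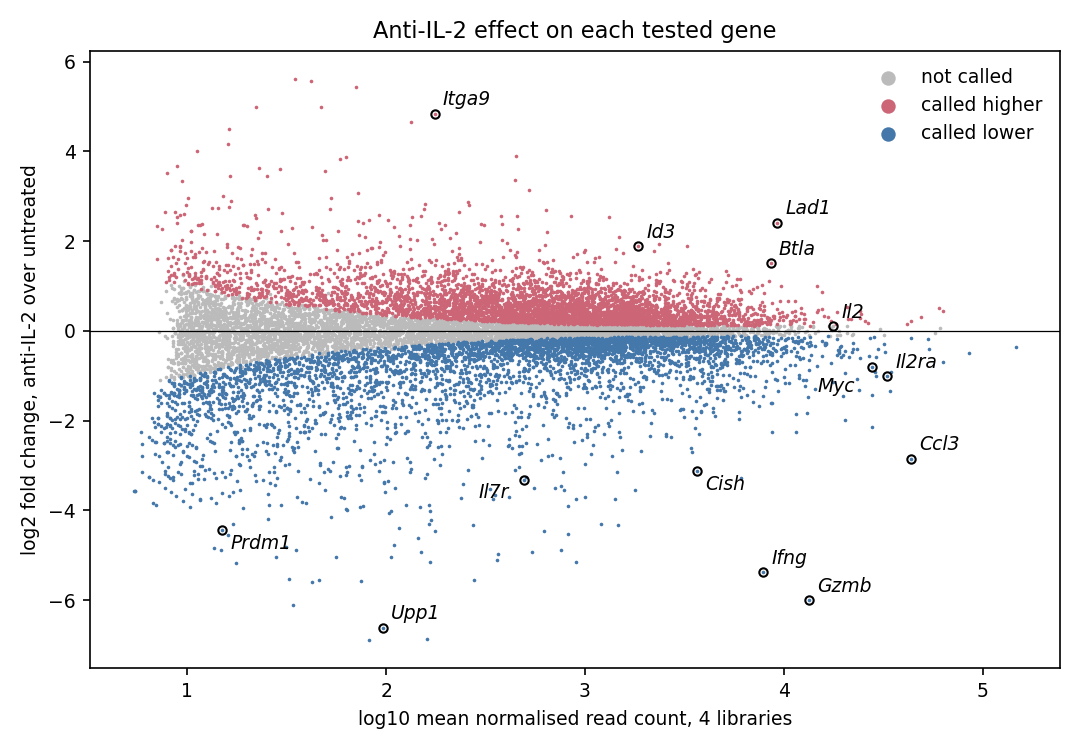
Each point is 1 of the 13978 tested genes, with the mean normalised read count of the 4 libraries on the x axis (log10) and the log2 fold change of anti-IL-2 over untreated cells on the y axis. Colour gives the limma call, and ringed genes are named. The lower side reaches further than the higher side, with Gzmb at -6.00 and Ifng at -5.38 among abundant genes, while Il2 lies at 0.11.

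Within the IL-2 pathway the gene of the cytokine did not pass the test, and those of the alpha and beta receptor chains fell. Il2 (chr3:37120523-37125959, minus strand, GRCm38), which encodes the cytokine the antibody binds, held 17226 and 16739.7 normalised reads in untreated cells and 18716 and 17835 with the antibody. These values did not pass (log2 fold change 0.11, SE 0.049, 95% interval 0.00 to 0.21, adjusted p = 0.0731). The blocked libraries lay above both untreated ones, but by little more than the libraries differed among themselves.

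Il2ra (chr2:11642807-11693193, plus strand), the alpha chain, held 44645 and 43661 untreated and 22025 and 21937 with the antibody. It fell by 1.01 on the log2 scale (SE 0.049, adjusted p = 1.8e-12), and the groups were far apart. Il2rb (chr15:78479256-78495271, minus strand), the beta chain shared with the IL-15 receptor, went from 10555 and 10426 to 3432 and 3557. That is a log2 fold change of -1.59 (SE 0.049) and a 3-fold lower level. Il2rg, the common gamma chain, held 9444 and 9112, then 7859 and 8687. Its log2 fold change of -0.17 passed, but not without untreated replicate 1, without untreated replicate 2 or without a filter on low values. Scaled per kilobase of annotated exon, the level of Il2ra still exceeded that of Il2rb in blocked cells, at 3849 against 815.

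Signalling genes moved in both directions. The kinase gene Jak1 stood at -0.06 and the STAT5 gene Stat5b at -0.06, neither past the test, while the kinase gene Jak3 fell (-0.34), as did the STAT5 gene Stat5a (-0.30) and Stat3, whose product relays IL-6 and IL-21 (-0.67). Ptpn6, the gene of the inhibitory phosphatase SHP-1, rose from 2722 and 2807 to 5040.4 and 5439.5 normalised reads, a log2 fold change of 0.92 (SE 0.053). Log2 fold changes of single genes stand in parentheses after the values throughout. Of 18 genes listed for the receptor and the JAK-STAT5 pathway, 4 rose and 10 fell, with a median of -0.20. Without untreated replicate 1 only 2 of these rose.

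Of 6 receptor genes for related cytokines 3 fell, 1 rose and 2 were not called. Il7r, the IL-7 receptor chain found on resting and memory cells, fell from 864 and 932 to 96.4 and 82.5 (log2 fold change -3.32, SE 0.1), and the groups did not come near each other. Il4ra, the IL-4 receptor chain, fell by 0.69 on the log2 scale, and Il21r, the IL-21 receptor, stood at -0.03 without passing. Il15ra, the alpha chain for IL-15, rose from 1456 and 1406 to 1576 and 1617 (0.16), a call lost without either untreated replicate.

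STAT5 target genes were mostly lower, among them 4 genes of feedback inhibitors. Cish, which encodes the STAT5-induced inhibitor CIS, held 6571 and 6583 in untreated cells and 744 and 759 with the antibody (log2 fold change -3.13, SE 0.053, adjusted p = 6.32e-19). Socs3, an inhibitor of JAK kinases, went from 690.1 and 587 to 58.2 and 37.4 (log2 fold change -3.74, SE 0.16). Socs2 fell from 247 and 231 to 30.5 and 24.9 (-3.07), and Socs1 from 1147 and 1136 to 434 and 533 (-1.24). In each of these 4 feedback genes both blocked libraries were below both untreated ones, and the fold ranged from 2.37 for Socs1 to 13.4 for Socs3.

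Genes for growth and survival under STAT5 changed less, and in both directions. Pim1, a survival kinase gene, held 17581 and 17688, then 8131 and 8373 (log2 fold change -1.10). Its relative Pim2 did not pass (0.00, 95% interval -0.12 to 0.12). Myc, the growth regulator, went from 35198 and 35265 to 19498 and 21057 (-0.80, SE 0.052), and the cyclin gene Ccnd2 fell by 0.55 on the log2 scale. Bcl2, which blocks cell death, fell (-0.42), while Bcl2l1, which encodes the related protein BCL-XL, rose from 15714 and 15708 to 20524 and 21911 (0.43). Cdk6, a kinase gene of the G1 phase, also rose (0.61).

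Some cytokine and receptor genes of the same list were several-fold lower. Lta, the gene of lymphotoxin alpha, fell from 4188 and 4336 to 778 and 915 (log2 fold change -2.34). Tnfrsf9, the co-stimulatory receptor 4-1BB, went from 18231 and 17715 to 4922 and 5109 (-1.84), and the cytokine gene Lif from 6617 and 6824 to 2029.5 and 2084 (-1.71). Bcl6, a transcriptional repressor gene, was weakly expressed and fell from 245 and 209 to 109.8 and 104 (-1.08). All 26 listed STAT5 targets were tested, of which 5 rose and 20 fell, and the median log2 fold change was -0.69 beside 0.018 for all tested genes.

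Of the 26 listed STAT5 targets 21 have a RefSeq promoter in the table, and 6 of these hold the STAT5 consensus TTCNNNGAA, which reads the same on both strands. Of the 6, Socs3, Lta, Bcl6 and Tnfrsf9 fell, and the TNF receptor family genes Tnfrsf18 (0.31) and Tnfrsf1b (0.52) rose. Of the 15 without a match 11 fell. The promoters of Socs3, Lta and Bcl6 are shown as examples with 1, 2 and 3 matches. Each line gives the 250 bases before the RefSeq start on GRCm38.p6, 5′ to 3′ on the strand of the gene, with matches in capitals. The windows are chr11:117969367-117969616 (minus strand) for Socs3, chr17:35205352-35205601 (minus strand) for Lta, and chr16:23981284-23981533 (minus strand) for the first of the Bcl6 starts in the table.
Socs3: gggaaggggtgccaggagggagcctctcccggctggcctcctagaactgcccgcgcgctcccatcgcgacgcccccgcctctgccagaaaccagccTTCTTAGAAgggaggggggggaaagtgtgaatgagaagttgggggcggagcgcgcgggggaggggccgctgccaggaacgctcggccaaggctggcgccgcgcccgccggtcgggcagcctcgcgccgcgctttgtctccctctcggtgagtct
Lta: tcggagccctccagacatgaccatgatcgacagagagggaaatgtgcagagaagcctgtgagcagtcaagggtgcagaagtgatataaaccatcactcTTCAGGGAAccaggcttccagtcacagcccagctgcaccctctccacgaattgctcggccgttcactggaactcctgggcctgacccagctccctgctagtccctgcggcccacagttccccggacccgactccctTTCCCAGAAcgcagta
Bcl6: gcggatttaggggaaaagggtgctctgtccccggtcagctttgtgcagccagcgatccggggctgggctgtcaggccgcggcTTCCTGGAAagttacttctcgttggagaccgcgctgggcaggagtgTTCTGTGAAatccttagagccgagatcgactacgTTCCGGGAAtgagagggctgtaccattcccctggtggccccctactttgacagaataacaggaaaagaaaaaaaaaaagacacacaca
Socs3 has 1 match, whose first base lies 154 bases before the start. Lta has 2, at 152 and 16 bases before it, and Bcl6 has 3, at 168, 122 and 88 bases. This Bcl6 window lies inside the annotated gene, and the window at the annotated 5′ end (chr16:23988853-23989102) has 1 match, TTCTCAGAA at 118 bases. The Socs3 window also lies inside its annotated gene (chr11:117966079-117970047). Tnfrsf9, Tnfrsf18 and Tnfrsf1b have 1 match each, at 136, 99 and 181 bases. The Tnfrsf9 match stands before the later of its starts (window chr4:150927749-150927998), inside the annotated gene. The window of the earlier Tnfrsf9 start (chr4:150919905-150920154) has none. None of these matches overlaps another. Cish has no match before its start but has 2 just after it, TTCCTGGAA from base 1 and TTCTTGGAA from base 12. The 250 bases before the starts of Il2, Il2ra and Gzmb hold none, but Gzmb has TTCATAGAA from base 38 after its start. Ifng, which is not on this list, has 1 match before its start, TTCAGAGAA at 249 bases.

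Over all 27025 genes with a RefSeq promoter in the table, 8.13% have at least 1 match in this window. Over the 9666 tested genes with a promoter the share is 7.045%. Of the 463 genes that fell at least 4-fold, 328 have a promoter and 36 of these a match (11%). Of the 103 that rose at least 4-fold, 72 have a promoter and 7 of these a match (9.72%). The share is 6.56% for genes that were not called. A gene with several starts counts by the start with most matches. These shares describe letters only, without a test, and a match is not a binding site.

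Most genes of cytotoxic granules were lower, granzyme B by the largest amount. Gzmb (chr14:56258838-56262260, minus strand), the killing protease of activated CD8+ T cells, held 26683 and 25898 normalised reads in untreated cells and 405 and 415 with the antibody. The log2 fold change was -6.00 (SE 0.051, adjusted p = 8.32e-24), a 64-fold lower level with no overlap. Prf1, which encodes the pore-forming protein perforin, went from 4569 and 4490.3 to 864 and 897 (log2 fold change -2.36, SE 0.054). Fasl, the death ligand gene, fell from 853 and 798 to 144 and 133 (-2.57), and Srgn, the granule proteoglycan, from 32193 and 30732 to 14499.6 and 15478 (-1.07).

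The death ligand genes moved apart. Tnfsf10, which encodes TRAIL, rose from 643 and 686 to 1413 and 1373 (log2 fold change 1.07, SE 0.064), opposite to Fasl. The granule-associated gene Nkg7 held 12426 and 12225, then 10209.6 and 10981, a log2 fold change of -0.22 that was lost without either untreated replicate. Of 25 listed cytotoxic genes 18 were tested, 2 rose, 14 fell, and the median was -0.52. Only 1 rose without untreated replicate 1. Gzma, the other main granzyme of killer cells, stayed between 3.84 and 7.64 in every library and was not tested.

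Cytokine genes of effector cells fell with the granule genes. Ifng (chr10:118441046-118445892, plus strand), the gene of interferon gamma, held 15659 and 15030.1 in untreated cells and 362 and 375 with the antibody (log2 fold change -5.38, SE 0.054, adjusted p = 8.19e-23). Tnf, a second inflammatory cytokine gene, fell from 6111 and 6112 to 1891 and 2091 (-1.62), a much smaller change. Il3, a myeloid growth factor gene, went from 445 and 451 to 40.1 and 42.2 (-3.41), while Csf2, the gene of the related factor GM-CSF, fell from 1129 and 1101 to 664 and 829 (-0.59).

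Not every cytokine gene fell. Ebi3, a subunit gene of IL-27 and IL-35, rose from 107 and 116 to 250.1 and 273 (log2 fold change 1.22), and Il16, a chemoattractant gene, rose by 0.90. Of 24 listed cytokines 16 were tested, 4 rose and 12 fell, with a median of -1.21. Il17a was listed at 0 in both untreated libraries and at 6.68 and 12.5 in the blocked ones, too low to be tested.

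All 13 tested chemokine ligand genes fell, of 16 listed, with a median log2 fold change of -1.80. Over all alternatives the number called lower ran from 10 to 13. Ccl3, which attracts inflammatory cells, held 77761 and 75397 untreated and 10070.2 and 11204 with the antibody (-2.85, SE 0.055). Its neighbour Ccl4 went from 45811 and 44389 to 10101 and 10281 (-2.15). Xcl1, the lymphotactin gene that attracts cross-presenting dendritic cells, fell from 50699 and 47354 to 18917 and 19664 (-1.35). Larger folds stood at lower levels. Ccl20, the ligand of CCR6, fell from 533 and 515 to 26.7 and 24 (-4.32), and Ccl9 from 661 and 565 to 56.3 and 48.9 (-3.52). Ccl5, a late effector chemokine, changed less, from 1572 and 1460.4 to 773 and 790.2 (-0.95). Cxcl10 changed least of the 13, from 197 and 210 to 146 and 159 (-0.42), a call lost with DESeq2 on recovered reads.

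**Figure D2:**
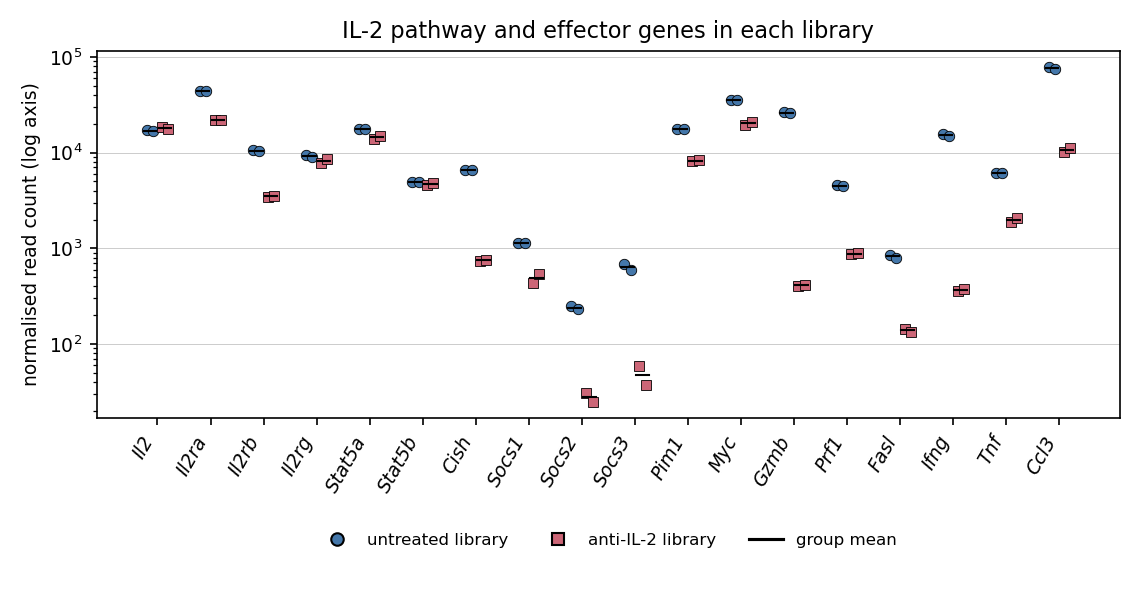
Normalised read counts on a log axis for genes of the IL-2 pathway and of effector function, with circles for the 2 untreated libraries, squares for the 2 anti-IL-2 libraries and a bar for each group mean. The groups are separated for Il2ra, Cish, the Socs genes, Gzmb and Ifng, and close together for Il2 (16739.7 to 18716) and Stat5b.

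Receptors that guide effector cells into tissue moved in both directions. Cxcr3, which steers effector cells to inflamed sites, went from 1491 and 1563 to 337 and 371 (log2 fold change -2.11), and Selplg, the selectin ligand gene, fell by 1.35 on the log2 scale. In the opposite direction, Ccr6 rose from 152 and 149 to 647 and 586 (2.03) and Ccr8 from 63.4 and 40.2 to 212 and 212 (2.05). Ccr7, a receptor for homing to lymph nodes, fell from 3964 and 4031 to 2911 and 3110.1 (-0.41). Altogether 4 of 19 tested genes of this group rose and 12 fell, with a median of -0.42.

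Transcription factors of effector differentiation were lower as a group, with exceptions. Tbx21, the gene of T-bet, which directs Ifng and Cxcr3, held 6129.7 and 5919.8 and then 1822 and 2032 (log2 fold change -1.65, SE 0.057). Id2, which favours effector cells, fell from 1333 and 1339 to 295 and 311 (-2.14), and Eomes, a relative of T-bet, from 353 and 373 to 159 and 169 (-1.14). Prdm1, the gene of BLIMP-1, a regulator of terminal effector cells, had 27 and 30 reads in untreated libraries and 1 and 0 in blocked ones. The ratio of untreated over blocked was 61.6 (exact 95% interval 10.6 to 2476, counting error only).

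Several abundant regulators fell by about 2-fold or more. Irf8 went from 24361 and 24554 to 10823 and 11374 (-1.14), Runx3, a factor of the CD8 lineage, from 5866 and 5809 to 2303 and 2488 (-1.29), and the Ikaros family gene Ikzf3 from 3059.6 and 2998 to 888 and 847 (-1.80). Irf4, induced in proportion to antigen receptor signals, fell less (37464 and 37427 to 27090.0 and 26608, -0.48). Hif1a, the oxygen-sensing factor, fell by 1.06 on the log2 scale.

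Batf and its relative moved in opposite directions. Batf, an AP-1 factor that acts with IRF4, rose from 452 and 437 to 1494 and 1628 (log2 fold change 1.81, SE 0.068), while Batf3 fell from 165 and 168 to 15.3 and 22.1 (-3.11, SE 0.2). The Ikaros family gene Ikzf2 rose by 0.90. Of 28 tested genes on this list 8 rose and 18 fell, with a median of -0.92. Without untreated replicate 1 only 5 rose.

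Genes linked to naive and memory cells split. Factors of the less differentiated state rose: Tcf7, the gene of TCF-1, went from 3429 and 3447 to 5873 and 6367 (log2 fold change 0.83), Lef1 from 1142 and 1243 to 2539 and 2815 (1.17), and Id3 from 768 and 805 to 2934 and 2897 (1.89). Myb, a regulator of stem-like memory, rose from 1285 and 1246 to 2889.6 and 2936 (1.20), and Actn1, an actin crosslinker, from 1356 and 1418 to 5136 and 5206 (1.90). In each of these 5 genes both blocked libraries lay above both untreated ones.

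Other genes of the same cell state fell. Il7r is given above. Foxo1, which sustains Il7r and homing genes, went from 3543 and 3391 to 1840.5 and 1818 (-0.92), Klf2, which controls exit from lymph nodes, from 208 and 201 to 132 and 146 (-0.56), and Ly6c2, a surface protein of memory cells, from 917 and 906 to 90.7 and 99.7 (-3.25). Over the 24 listed genes 8 rose and 13 fell, with a median of -0.18, beside 31.4% higher and 28.9% lower of all tested genes.

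Inhibitory receptors did not move together. Pdcd1, the gene of PD-1, held 5128 and 5112 untreated and 4809 and 5146 with the antibody and did not pass (-0.04, 95% interval -0.15 to 0.07). Havcr2, the gene of TIM-3, fell from 122 and 116 to 5.73 and 7.67 (-3.97), Ctla4 from 3080.4 and 2974 to 1425 and 1361 (-1.12), and Lag3 by 0.67 on the log2 scale. Btla, an inhibitory receptor of resting lymphocytes, rose from 4508 and 4423 to 13218 and 12164 (1.51, SE 0.052). Tox, a factor of exhausted cells, also rose, from 1474 and 1538 to 3059 and 3062 (1.02). The near-identical pair Lilrb4a and Lilr4b fell (-3.10 and -3.45), and reads may be shared between them. Of 19 tested genes on this list 4 rose and 13 fell (median -0.75).

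Co-stimulatory genes went both ways. Cd28, the receptor that one of the stimulating antibodies binds, fell from 7086 and 7087 to 2027 and 1793 (log2 fold change -1.89, SE 0.057), and its inducible relative Icos from 5389 and 5287 to 1597 and 1506 (-1.78). Cd2, an adhesion receptor, fell by 1.81 on the log2 scale. By contrast Cd226, an activating receptor that competes with TIGIT, rose from 957 and 1037 to 3654 and 3258 (1.79), and Cd70, the ligand of CD27, from 252 and 269.8 to 889.7 and 930.2 (1.80). In all 11 of 26 rose and 13 fell, with a median of -0.11.

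Antigen receptor and proximal signalling genes fell more often than they rose. Cd3e (-0.06) and Trac (0.10), which encode parts of the receptor, did not pass, Cd8a fell by 0.40 on the log2 scale and Cd8b1 by 0.54, and Cd247, the zeta chain, by 1.05. Cblb, a ubiquitin ligase that restrains signalling, went from 9027 and 8779 to 3157 and 3301 (-1.46). The phosphatase gene Ptpn22 fell from 14181 and 13713 to 6059.9 and 6437 (-1.16), and Malt1, which relays signals to NF-kappaB, by 1.34. Ubash3a, another restraint on the receptor, rose from 631 and 653 to 1382 and 1416 (1.12). Of 34 genes 7 rose and 22 fell, with a median of -0.37.

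Killer lectin-like receptors are shared between activated CD8+ T cells and natural killer cells. Klrk1, the gene of NKG2D, went from 2379.9 and 2377 to 348 and 341 (log2 fold change -2.78, SE 0.063), Klrd1 (CD94) from 2627 and 2649 to 452 and 385 (-2.66), and Klrc1 (NKG2A) from 2658 and 2525 to 324 and 264 (-3.14). All 7 tested members of 14 listed fell, with a median of -2.92, and reads of Klrc1 and Klrc2 may be mixed. Of the natural killer cell markers, Ncr1 and Zbtb16 were at 0 in every library and Tyrobp was at most 1.04. The summed level of all 12 lay between 1197 and 1214 untreated and between 754 and 773 with the antibody. Gata3, Eomes and Il1rl1 made up most of that sum, with means of 491, 363 and 333 untreated and 556, 164 and 41.1 blocked.

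Among immediate early genes, which respond to antigen receptor signals within minutes, several were lower on day 3. Egr2 fell from 9532 and 9367 to 2369 and 2489 (log2 fold change -1.96, SE 0.05), Egr1 from 11277 and 11533 to 4596 and 4933 (-1.26), Fosb from 1443 and 1535 to 250.1 and 287 (-2.47), and the stress factor gene Atf3 from 1742 and 1708 to 331 and 340.4 (-2.36). Together with heat shock genes the list had 3 higher and 18 lower of 27, with a median of -0.91. The number higher was 5 without anti-IL-2 replicate A and 2 without either untreated replicate. Hspd1, a mitochondrial chaperonin gene (0.71), the chaperone gene Hsp90aa1 (0.19) and the immediate early gene Ier2 rose. Ier2 held 3269.6 and 3273 untreated and 3897 and 4337 blocked (0.33).

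Interferon-stimulated genes were lower on the whole, among them many that interferon gamma induces. Gbp2, a guanylate-binding protein gene, went from 14530.1 and 14305 to 2992 and 3095 (log2 fold change -2.24, SE 0.048), and Irgm1, an immunity-related GTPase gene, from 5942 and 5761 to 944 and 982 (-2.60). Irf7, a regulator of antiviral genes, fell from 711 and 690.0 to 113 and 124 (-2.56), and Oas3, an RNA sensor gene, from 839 and 824 to 125 and 124 (-2.73). Irf1 (-0.05) and Isg15 (0.07) did not pass, and Ifit1, an RNA-binding antiviral gene, rose from 247 and 217 to 382 and 366 (0.69). Of 44 tested genes 36 fell and 5 rose, with a median of -1.28. Only 3 and 2 rose without untreated replicates 1 and 2.

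MHC class I presentation genes went both ways, and those of the presenting molecules named here fell. B2m, the shared light chain, went from 46546 and 43733 to 22813 and 24739 (log2 fold change -0.93, SE 0.055), H2-K1 from 29462 and 28629.7 to 18871 and 19526 (-0.60), and H2-Q7 by 1.16, although related H2 genes may share reads. Nlrc5, which switches on these genes, fell from 4883 and 4908 to 2642 and 2683 (-0.88). The pathway was not uniform, since Psme2 (0.37), a proteasome activator gene, and Calr (0.39), a chaperone gene, rose. Of 18 genes 6 rose and 8 fell, with a median of -0.03, beside 31.4% higher and 28.9% lower of all tested genes.

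DNA replication genes rose without exception. Mcm2, part of the replicative helicase, held 2152 and 2113 untreated and 5192 and 5450.1 with the antibody (log2 fold change 1.32, SE 0.051, adjusted p = 6.46e-14). Pola1, the catalytic subunit of the priming polymerase, rose from 559 and 577 to 1879 and 1682 (1.64), Rrm2, which makes deoxynucleotides, from 1445 and 1502 to 3922 and 3687 (1.37), and the ligase gene Lig1 from 2100.4 and 2110.2 to 4995 and 5219.9 (1.28). All 36 listed genes were called higher, beside 31.4% of all tested genes, with a median of 0.99 and a range of 0.33 to 1.64.

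Most mitotic genes were higher too. Bub1b, a spindle checkpoint kinase gene, rose from 685 and 660.2 to 1633 and 1631 (log2 fold change 1.28), Ccna2, the S and G2 phase cyclin, from 1761 and 1705 to 3728 and 3908 (1.14), and Top2a from 6459 and 6456 to 13479 and 12392 (1.00). Mki67, the proliferation marker, rose less, from 6899.8 and 6816 to 10708 and 10537 (0.63). Of 31 genes 28 rose and 1 fell (median 0.76). The one that fell, Cenpa (-0.22), was not called without untreated replicate 1.

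Genes that time entry into the cycle rose more often than they fell. Ccne1, the cyclin of the G1 to S step, went from 322 and 317 to 777 and 736 (log2 fold change 1.24), and the repressor E2f7 from 101 and 73.1 to 226 and 275 (1.53). Cdkn1a, the gene of the cycle inhibitor p21, fell from 4606 and 4694 to 1269.6 and 1482 (-1.76, SE 0.064). Of 21 tested genes 14 rose and 2 fell, and 4 fell without anti-IL-2 replicate B. Cdkn1a also stands among 21 p53 targets, of which 9 rose and 12 fell, and fewer fell in some fits with 1 library left out. In that list Trp53inp1, a stress-induced autophagy gene, fell from 6739.7 and 6869 to 2147 and 1779.9 (-1.80), and Bbc3, the gene of the death protein PUMA, rose from 243 and 227 to 473 and 539 (1.10).

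Most nucleotide synthesis genes were also higher. Tyms, which makes thymidylate, went from 439.6 and 409 to 1361 and 1450.0 (log2 fold change 1.73, SE 0.07). In the whole list 24 of 31 tested genes rose and 3 fell (median 0.42). The salvage enzyme gene Upp1, uridine phosphorylase, was the extreme in the other direction: 168 and 203 reads in untreated libraries and 1 in each blocked library, a ratio of 200.6 (exact 95% interval 55.1 to 1662, counting error only). Some one-carbon enzymes that feed this pathway rose, such as Mthfd1 (1751 and 1791 to 3812 and 3909, 1.12) and Phgdh (0.78), with 12 of 20 higher and 6 lower.

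**Figure D3:**
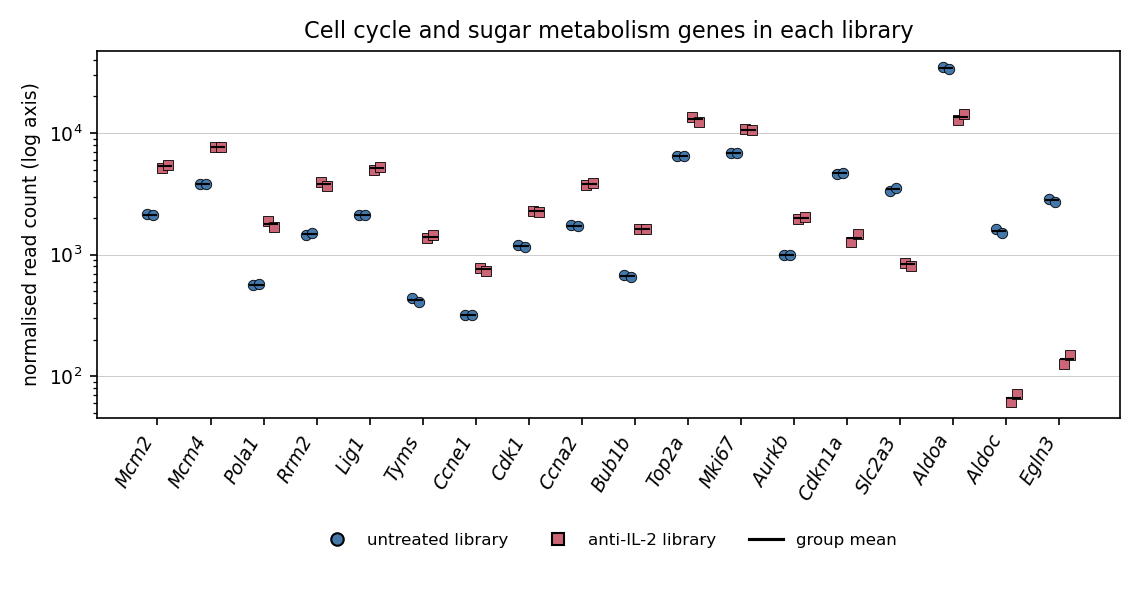
Normalised read counts on a log axis for cell cycle and sugar metabolism genes, with circles for untreated libraries, squares for anti-IL-2 libraries and bars for group means. Replication and mitosis genes such as Mcm2, Pola1, Tyms and Bub1b lie higher in both blocked libraries, and Cdkn1a, Slc2a3, Aldoc and Egln3 lie lower.

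Most glycolysis and hypoxia genes were lower. Aldoc, an aldolase gene, went from 1629 and 1517 to 62 and 71.9 (log2 fold change -4.54, SE 0.097), and Egln3, an oxygen-sensing hydroxylase gene that HIF-1 induces, from 2861 and 2724 to 127 and 149 (-4.33). The abundant isoform gene Aldoa fell from 34503 and 33537 to 12869 and 14368 (-1.32), and Pgk1, a later glycolytic enzyme, from 11303 and 11048 to 5234 and 5113 (-1.11). Slc2a3, the gene of the glucose transporter GLUT3, went from 3343 and 3541 to 860.1 and 807 (-2.04). Glucose uptake and fermentation genes were not all lower, since Slc2a1 (0.08), Hk2 (-0.10) and Ldha (-0.05) did not pass and Pfkl, a phosphofructokinase gene, rose (0.93). Of 26 tested genes on the glycolysis list 18 fell and 4 rose (median -0.66), and 2 rose without either untreated replicate.

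Some mitochondrial metabolism genes rose, mostly by small amounts. Sdha, of complex II, went from 2771 and 2731 to 4081 and 4254 (log2 fold change 0.60), and Ndufa4 from 854 and 836 to 1533 and 1578 (0.88). Ppargc1b, a regulator of mitochondrial biogenesis, rose from 60.3 and 51.5 to 219 and 241 (2.02). Of 29 respiratory chain genes 12 rose, 1 fell and 16 were not called, with a median of only 0.13 and 6 higher without untreated replicate 2. The one that fell, Cox4i1 (-0.24), was not called without untreated replicate 1, and 3 fell without anti-IL-2 replicate B. Of 15 tested genes of the TCA cycle and its regulators 12 rose, fewer in some fits with 1 library left out, and 1 fell. That gene was Cpt1a, whose product brings fatty acids into mitochondria, and its call (-0.26) was lost without untreated replicate 2.

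Sterol and lipid genes were mostly lower. Scd1, a fatty acid desaturase gene, fell from 511 and 526 to 91.6 and 101 (log2 fold change -2.42, SE 0.11). Dhcr7, a late enzyme of cholesterol synthesis, rose (0.93). Of 29 genes 20 fell and 4 rose, and without untreated replicate 2 the numbers were 12 and 2.

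Amino acid and iron uptake genes gave no common direction. Tfrc, the transferrin receptor, rose from 12479 and 12399 to 18666 and 15994 (log2 fold change 0.47), and Slc3a2, the shared heavy chain of amino acid transporters, fell from 5266 and 5089.7 to 4111 and 4299 (-0.30). In the list of nutrient transporters and the MYC network 6 of 18 rose and 7 fell, and 3 rose without untreated replicate 1. Ribosome biogenesis genes had 10 higher and 4 lower of 27, beside 31.4% higher and 28.9% lower of all tested genes. Without 1 of the libraries these counts ran from 4 to 14 and from 1 to 5, with 4 higher without either untreated replicate, and 1 and 2 lower without untreated replicates 1 and 2.

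Death and survival genes of the BCL2 family were divided, with 5 of 16 higher and 9 lower, or 5 lower without a filter. Bid, a death-promoting member, rose from 657 and 695 to 1249.6 and 1346 (log2 fold change 0.94), and Bcl2l11, the gene of BIM, fell from 3299 and 3344 to 2049 and 1975 (-0.72). Mcl1, a short-lived survival gene, fell by 0.26 on the log2 scale.

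Chromatin genes were more often higher than lower. Trim28, the co-repressor gene studied in the other experiment, held 5774 and 5919.8 untreated and 7926 and 8528 with the antibody (log2 fold change 0.49, SE 0.051), and Setdb1, its partner methyltransferase, 1645 and 1693, then 2272 and 2227 (0.43). Cbx5, the gene of heterochromatin protein HP1 alpha, rose from 1289.7 and 1434 to 4057 and 3685 (1.51), and Dnmt1, the maintenance methyltransferase of replicating DNA, from 3733 and 3414 to 7678 and 8356 (1.17). Of 28 tested genes of the TRIM28 pathway 23 rose and 5 were not called, with a median of 0.45. Fewer of them rose in some fits with 1 library left out. Among chromatin loop and DNA methylation genes 14 of 26 rose and 5 fell, or 2 without untreated replicate 1 and 3 without untreated replicate 2. Ctcf rose (0.40), as did the lamin gene Lmnb1 (1.09), while Tet2, a demethylation enzyme gene, fell from 2689 and 2615 to 1348 and 1314 (-0.99).

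**Figure D4:**
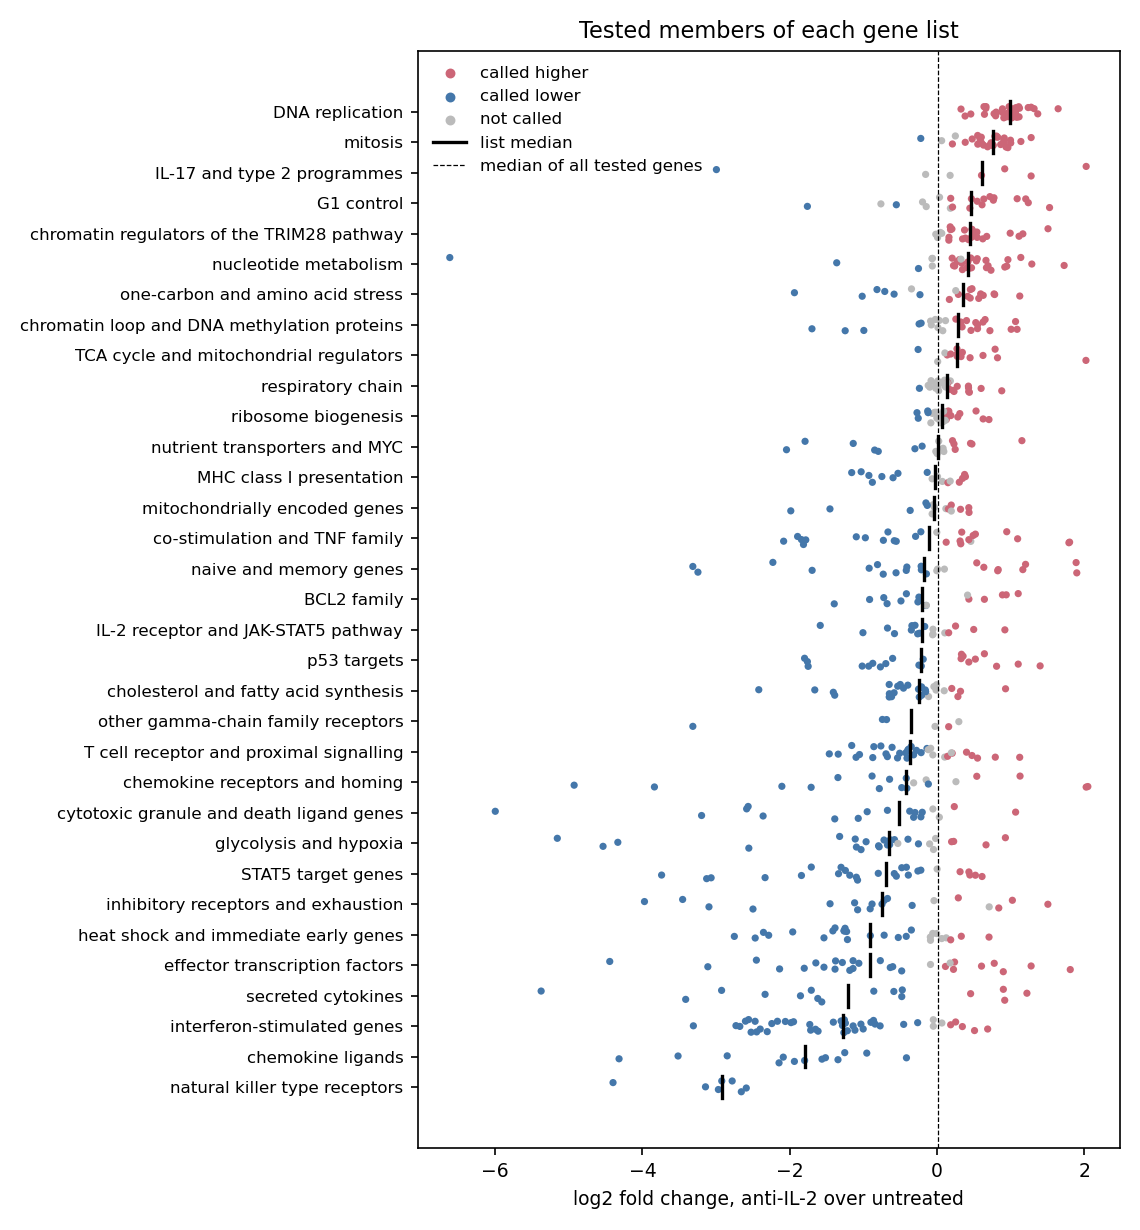
Log2 fold change of anti-IL-2 over untreated cells (x axis) for the tested members of each gene list (rows, ordered by median), coloured by limma call, marker lists left out, with a bar at the list median and a dashed line at the median of all tested genes (0.018). The vertical scatter within a row carries no value. Natural killer type receptors (-2.92) and chemokine ligands (-1.80) stand at the low end, and DNA replication (0.99) and mitosis (0.76) at the high end.

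Integrin, channel and enzyme genes were among the largest increases. By fold among called genes with separated groups and a group mean of at least 160, Itga9, an integrin subunit gene, came first, from 11.4 and 10.3 to 352 and 328 (log2 fold change 4.85, SE 0.18). Spib and Fcrl1, described below with other B cell genes, also rank among the first 5. Trpa1, an ion channel gene known from sensory neurons, held 58.2 and 52.5, then 891 and 790.2 (3.90), and Dhrs3, which reduces retinaldehyde, 101 and 111, then 897 and 980.1 (3.13). Wnt3, a secreted signal gene, rose from 62.4 and 63.9 to 384 and 424 (2.66), Trat1, a T cell receptor adaptor gene, from 91.5 and 128 to 699.7 and 594 (2.56), and Hdac9, a histone deacetylase gene, from 43.6 and 42.2 to 256 and 258 (2.55). By amount, Lad1, a filament-anchoring gene, stood out, with 2873 and 2943 untreated and 14415 and 16657 blocked (2.41, SE 0.059). The actin gene Actb rose from 49452 and 50441 to 69523 and 71916 (0.50) and the histone deacetylase family gene Hdac7 from 9719 and 9822 to 18617 and 20609 (1.00).

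Several of the top risers are better known from B cells. Spib, a B-lineage transcription factor gene, went from 13.5 and 6.18 to 252 and 261 (log2 fold change 4.66, SE 0.26), Fcrl1, a B cell surface receptor gene, from 74.8 and 81.4 to 802 and 828 (3.37), Tnfrsf13c, the BAFF receptor, from 165 and 174 to 1056 and 1152 (2.69), and Ighd, the delta heavy chain, from 66.5 and 63.9 to 449 and 469 (2.80). Of the 15 listed B cell markers, Ms4a1, Pax5 and Fcer2a were at or near 0, with at most 1.92 in any library, while 8 were high enough to be tested. The summed level of the 15 listed B cell markers ran from 4467 to 4485 untreated and from 5624 to 6068 with the antibody, most of it from Ighm (2925 and 2927, then 4133 and 4452). Of the 8 tested markers 3 rose and 2 fell, or 1 without either untreated replicate. Cd74, the gene of the class II invariant chain, rose (0.44 to 0.57 over all fits). The MHC class II gene H2-Ab1 went the other way, from 722 and 700.3 to 19.1 and 24.9 (-4.96).

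**Figure D5:**
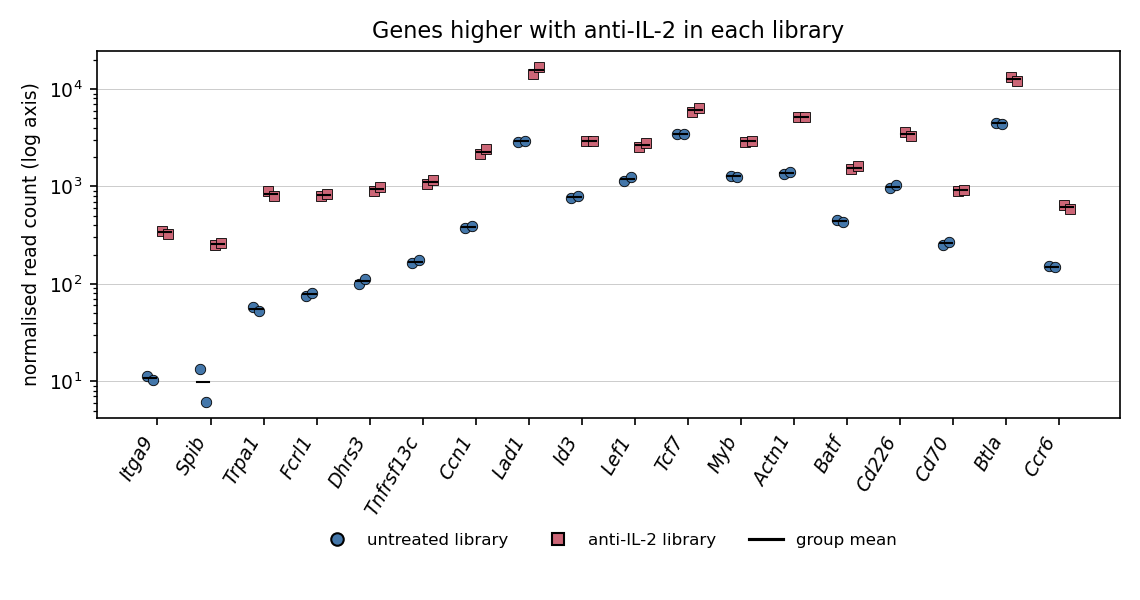
Normalised read counts on a log axis for genes that were higher with anti-IL-2, with circles for untreated libraries, squares for anti-IL-2 libraries and bars for group means. Both blocked libraries lie above both untreated ones in every gene shown, such as Itga9 (10.3 to 352) and Lad1 (2873 to 16657).

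The largest decreases beside those already named were in genes of varied function. Tm4sf19, a membrane protein gene, had 149 and 169 reads untreated and 1 and 0 blocked, a ratio of 343.8 (exact 95% interval 61.3 to 13620.0, counting error only). Plac8, a gene of effector and memory lymphocytes, fell from 1791 and 1730.2 to 45.8 and 51.8 (log2 fold change -5.15, SE 0.097), Pygl, which breaks down glycogen, from 361 and 285 to 9.55 and 6.71 (-5.16), and Lgals3, the gene of galectin-3, from 1444 and 1502 to 53.5 and 45.1 (-4.88). Il12rb2, a chain of the IL-12 receptor, went from 1017 and 1074 to 27.7 and 40.3 (-4.93).

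Markers of other cells were low beside the 10 listed CD8 T cell markers. That list holds genes of T cells in general, such as Cd3e and Trac, beside Cd8a and Cd8b1. Its sum therefore does not set CD8 against CD4 T cells. The 10 markers summed to between 80605 and 82301 untreated and between 62504 and 65053 blocked, and 7 of them fell. Within that sum Cd8a and Cd8b1 averaged 7205 and 5276 untreated and 5467 and 3637 blocked. The 8 CD4 T cell markers summed to between 2078 and 2277 untreated and between 1634 and 1846 blocked. Of the 6 tested CD4 markers 1 rose (Cd40lg) and 4 fell, among them Foxp3, from 58.2 and 50.5 to 8.59 and 9.59 (-2.45). Of the 14 myeloid markers, Csf1r, Siglech, Cd14 and Fcgr1 stood at 1.92 or below in every library, Cd68 fell from 326 and 339 to 72.6 and 66.2 (-2.25), and the summed level went from 1713 and 1731 to between 1113 and 1193. The 15 erythroid, platelet and stromal markers summed to 628 and 705 untreated and 1199 and 1207 blocked. Most of that was the adhesion gene Pecam1 (487 and 466, then 995 and 957), which lymphocytes also express, while globin genes reached at most 9.59. Of 6 tested markers of this kind 3 rose, or 1 without untreated replicate 1. Their part in the results was not tested.

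Some abundant genes stayed level. Among the 500 genes with the highest mean, Slfn2, which keeps T cells quiescent, held 19051 and 18686 untreated and 19029 and 18734 blocked (log2 fold change 0.00, 95% interval -0.10 to 0.10). Arhgdia, a GTPase inhibitor gene, and Cd27, a co-stimulatory receptor, were also near 0. The translation factor genes Eef2 (99642 and 99053 to 68137 and 74108, -0.48) and Eef1a1 (78973 and 77325 to 48268 and 49194, -0.68) fell. Reads of mitochondrial ribosomal RNAs fell as well in these polyA libraries, mt-Rnr1 from 32706 and 32148 to 8221 and 8148 (-1.99). Whether the capture of these RNAs differed between the groups was not tested. The mitochondrial mRNA mt-Cytb rose from 54760.5 and 52535 to 70316 and 74725 (0.43). Of 15 mitochondrially encoded genes 5 rose and 5 fell, beside 31.4% higher and 28.9% lower of all tested genes. Fewer of them were called in each direction without untreated replicate 1 or without untreated replicate 2.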

How the data were processed

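PolyA RNA libraries of 4 samples were used. Per the submitters' processing notes, the genome build was mm10 and the tools were Trim Galore 0.4.4 for trimming, DESeq2, StringTie 2.1.4 and HISAT2 2.2.1, while the counting tool, the annotation and strand use are not given in the sources used here. The deposited values are read counts that the authors divided by a size factor per library (a signal, not raw counts), and dividing by the smallest step returned whole reads for every value within 0.001. Overlapping, antisense and near-identical genes may therefore share reads. The columns of the blocked cells carry no replicate number and are called A and B.

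Tests used limma 3.58.1 (trend) in R 4.3.3 on log2(value + 1), which understates folds of low genes, for genes with at least 10 in 2 libraries, with Benjamini-Hochberg adjustment over all tested genes and a threshold of 0.05. The limma step was tested on simulated data with few changed genes and equal spread in both groups, unlike these data. Alternatives used edgeR 4.0.16 and DESeq2 1.42.0 on the recovered reads, other pseudocounts, filters and scalings, and each library left out. The members and gene lists were chosen with earlier results of these data known. Named genes are core members of the lists, up to 4 called members per direction and list, the 15 largest folds and 8 largest differences per direction, and 6 abundant genes near 0. Aldoa, Cd247, Hif1a, Klrc2, Lif, Pgk1, Pim2, Runx3 and Srgn in the text, and Ccn1 and Mcm4 in the plots, fall outside that rule and were chosen after their values were seen. Gene positions come from GENCODE M21 (GRCm38) and promoters from RefSeq (GRCm38.p6). Intervals of read ratios are exact and cover counting error only. Results for some genes are not reported here.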

Additional observations from a re-analysis of the deposited data

How the results depend on the processing

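Under the 12 alternatives run on the expression values, no named gene reversed that was called in the main fit or the alternative. Some genes near 0 that were not called did change sign, such as Slfn2 (-0.020 to 0.015) and Isg15 (-0.069 to 0.20). The balance of calls also reversed: 52.1% of called genes were higher, but 49.9% with DESeq2 and 49.8% with upper-quartile rescaling. The median of all genes, 0.018, was -0.029 without a filter, -0.0023 with DESeq2 and -0.0032 with upper-quartile rescaling. Of 372 named genes 344 were called, and 298 of these stayed called in every alternative that tested them. The other 46 were lost in at least 1, and among 166 called genes changed at least 2-fold only Gzmc, Gzmk and Hspa1a were lost, without a filter on low values. The Il2 log2 fold change ranged from 0.07 to 0.14 and passed in 2 alternatives. A pseudocount of 5 left 63 genes at least 4-fold higher and 294 lower. A filter at 50 left 825 genes at least 2-fold lower, 60 at least 4-fold higher and 251 at least 4-fold lower, with fewer genes tested (10872). With 1 library left out, the lone library of a group was assumed to vary as the other group did. The count of higher genes then ranged from 3360 to 4361 and of lower genes from 3018 to 4124. Genes at least 2-fold higher ranged from 696 to 715 and lower from 1309 to 1435, and at least 4-fold higher from 105 to 117 and lower from 464 to 483. A promoter window of 300 bases, reaching past the start, raised the share of all genes with a match to 9.55%. Rescaling moved the median log2 fold change of all genes by less than 0.1. No paired analysis was possible because the columns of the blocked libraries carry no replicate numbers. The planned comparison of granzyme proteins was not run, since no protein table was at hand. With 2 libraries a group, differences of about 0.1 on the log2 scale were not resolved.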

Other observations

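Several further gene groups, chosen after their values were seen, held genes that were lower with anti-IL-2. All 4 receptor genes for IL-12 and IL-18, cytokines that drive interferon gamma, fell: beside Il12rb2, Il18rap went from 2221 and 2122 to 571 and 518 (3.99-fold lower), Il12rb1 fell by 1.00 and Il18r1 by 0.70 on the log2 scale. The metallothionein genes Mt1 and Mt2, which bind zinc, both had a log2 fold change of -3.71, Mt1 going from 1932 and 1789.9 to 139 and 144. Of the zinc transporter genes examined with them, Slc30a1 fell (-0.88) and Slc39a10 rose (0.76). Ly6a, a surface marker of activated cells also called Sca-1, fell from 2392 and 2203 to 107 and 123 (-4.31), and its relative Ly6e did not pass (0.02). Rgs16, which shortens chemokine receptor signals, fell from 19204 and 18919 to 4031 and 4020.2 (-2.24), and Sema7a, a membrane semaphorin gene, from 11222 and 10869 to 1130.3 and 1158 (-3.27). All 10 annexin, S100 and galectin genes examined fell, with a median of -1.48.

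Retinoid genes, also chosen after their values were seen, split. Rxra and Rarg, which encode retinoid receptors, rose from 244 and 281 to 989.9 and 994 (log2 fold change 1.92) and from 382 and 412 to 941 and 1027 (1.31). Crabp2, which carries retinoic acid in the cell, fell from 1801 and 1753 to 233 and 223 (-2.96), and the receptor gene Rara fell by 0.61 on the log2 scale. Of 84 cytosolic ribosomal protein genes taken by name, 72 fell and 1 rose, with a median of -0.39.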
